A study of Homo sapiens with 18 samples.

Results

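The change described here is that of PC-3 cells held in suspension without shear, between 12 h and 24 h after detachment. The members are 6 of the 18 libraries of the study and every gene expressed in them. Of these libraries, 3 are labelled static 24 h and 3 static 12 h. The filter on low counts was applied to these 6 and the 3 static libraries of 3 h together, and 14804 of 28395 gene IDs passed. With the 6 libraries alone 14412 genes were tested. PC-3 is an established human prostate cancer line derived from a bone metastasis. The cells grew in serum-containing DMEM/F12 and were then detached and suspended in DMEM with insulin, transferrin, selenium and bovine serum albumin, without serum. The static cells waited in suspension while a parallel aliquot of the same pool passed through a syringe and needle (fluid shear stress), and both were then plated in wells coated with poly-HEMA, a polymer to which cells do not attach, until cytosolic RNA was taken. Both groups thus share the line, the detachment, the medium and the lack of attachment, and differ by label in time only; each library comes from a separate pool, the labels call the pools of different times independent, and both groups carry 1 batch date. The 3 static libraries of 3 h, which carry another batch date, enter the fit for the spread between replicates. They also take part in the filter on low counts and in the scaling factors.

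Epithelial cells normally need attachment to an extracellular matrix, together with growth factors, to pass from G1 into S phase, and many normal epithelial cells die when detached, a process called anoikis. Genes of DNA replication are transcribed mostly around the G1/S transition by E2F factors, whereas genes of mitosis peak in G2 and M and are controlled by the DREAM and MuvB-B-MYB-FOXM1 complexes through a promoter element called CHR and through CCAAT boxes.

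At 24 h, 2499 genes were higher and 2306 lower than at 12 h (edgeR quasi-likelihood test, Benjamini-Hochberg adjusted p below 0.05), which is 16.9% and 15.6% of the genes tested. Of the genes called, 464 rose and 632 fell by at least 2-fold. Counts of members called in a list are read against the shares of 16.9% and 15.6%. Leaving out replicate 1 of 12 h gave 1451 higher and 1443 lower genes, and leaving out replicate 2 of 12 h gave 1456 and 1398. The libraries of 12 h and 24 h did not overlap in 4405 of the 4805 genes called and in 42.4% of all genes tested, and statements on overlap are read against that. Values written as "rose by" or "fell by", or alone in brackets after a gene, are log2 fold changes of 24 h over 12 h. The largest rises and falls were taken among called genes of at least 1 in mean log2 CPM whose groups did not overlap. The 15 largest rises lay between 2.31 and 3.81 and were MUC2, CEACAM5, BST2, IFI6, IFITM1, SPRR1A, IFI27, KRT20, TRIM31, DHRS9, TRIM29, S100P, FGFBP1, HHIPL2 and MUC5AC. The 15 largest falls lay between -2.20 and -2.73 and were KRT4, KNL1, HELLS, MYBL1, FAM111B, BRCA1, CENPI, CENPE, POLQ, DTL, KIF15, ESCO2, CLSPN, CCDC15 and BLM. Of the falls, 6 belong to the lists of mitosis, DNA replication and recombination described here, and of the rises 3 belong to the interferon list.

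**Figure D1:**
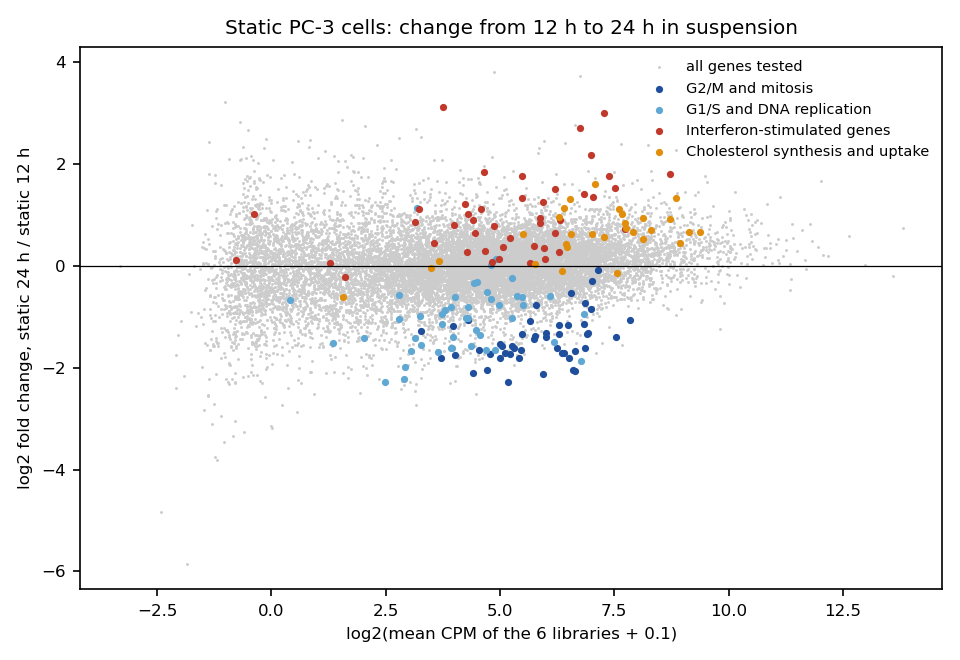
Each point is 1 of the 14804 genes tested. The x axis is the log2 of the mean CPM (counts per 1000000) over the 6 libraries plus 0.1, and the y axis is the log2 fold change of static 24 h over static 12 h. G2/M genes (dark blue) and G1/S genes (light blue) lie mostly below 0, with medians of -1.55 and -1.03, and interferon-stimulated genes (red) and cholesterol genes (orange) mostly above it, with medians of 0.87 and 0.66.

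The 6 libraries held between 16400487 and 21976621 counts in genes. The share of counts in the 100 most abundant genes was 18.1 to 19.3% at 12 h and 20.3 to 22.7% at 24 h, and fewer genes had a count at 24 h (17664 to 17784) than at 12 h (18038 to 18260). Both differences have an exact two-sided permutation p of 0.1, the smallest that 3 against 3 can give. As a check of the labelled line, 12 genes listed for PC-3 cells were read. All were above 1 CPM in at least 1 of the 6 libraries. That level is low and no other line was read, so it cannot tell PC-3 from other lines. KLK2 and KLK3, kallikreins of luminal prostate cells, had no count in any of the 6. Of 13 markers of luminal prostate cells, 5 stayed under 1 CPM in all 6. Other luminal markers were present, such as HOXB13, a prostate transcription factor, at 225 to 303 CPM over the 6, and FOLH1, the surface antigen PSMA, at 14.1 to 36.7. Marker levels in this check are CPM of total counts, without TMM scaling. Of the markers of other cell types, 13 of 15 haematopoietic and 9 of 15 fibroblast and endothelial markers stayed under 1 CPM in all 6. Fibroblast and endothelial markers above that level included PECAM1, at 70.2 to 96.8 CPM over the 6, and COL1A1, at 29.1 to 38.7. The summed fibroblast and endothelial markers were 116 to 134 CPM at 12 h and 111 to 134 at 24 h. The summed haematopoietic markers were 37.7 to 40.6 CPM at 12 h and 65.98 to 106 at 24 h, mostly CD68, a lysosomal membrane protein that is not limited to blood cells; MS4A1, HBB, AIF1 and TYROBP had no count, and PTPRC, CD3E and ITGAM stayed under 1 CPM.

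Genes of G2 and mitosis fell together. Of 48 members tested, 44 were lower at 24 h and 0 higher (0 at an unadjusted p below 0.05, 0 by DESeq2 and 0 by limma-voom), with a median log2 fold change of -1.55 against 0.01 over all genes tested. In bulk RNA, fewer cells in these phases and less of these RNAs per cell cannot be told apart. MKI67, the nuclear protein Ki-67 that coats mitotic chromosomes and is absent from resting cells, measured 140.2, 163 and 121 CPM at 12 h and 38.6, 37.2 and 45.9 CPM at 24 h. The groups did not overlap, and the 3 libraries of 24 h lay close together. The test gave log2 fold change -1.80, SE 0.14, adjusted p = 7.5e-07. FOXM1, the transcription factor that activates mitotic genes, measured 272, 256 and 275 CPM at 12 h and 96.1, 102 and 105 CPM at 24 h, also without overlap (log2 fold change -1.41, SE 0.12, adjusted p = 7.6e-07).

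The promoters of the first 6 G2/M members by p value with a promoter entry were read, and the 4 that held a CHR match in the stretch printed are shown; KIF20B and BUB1 held CCAAT boxes but no CHR match there. Each line gives the 120 bases before the gene start (RefSeq, GRCh38.p14), 5′ to 3′ on the coding strand. Capitals mark CHR (TTTGAA) and CCAAT on either strand. In MKI67 and CDCA8 a CHR match overlaps a CCAAT box on the other strand, and HMMR and ANLN hold adjoining CHR matches. ANLN holds no CCAAT box here.
MKI67, chr10:128126424-128126543 (- strand): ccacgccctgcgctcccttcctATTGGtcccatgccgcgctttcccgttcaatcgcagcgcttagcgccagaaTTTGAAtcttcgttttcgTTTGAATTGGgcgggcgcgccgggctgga
CDCA8, chr1:37692396-37692515 (+ strand): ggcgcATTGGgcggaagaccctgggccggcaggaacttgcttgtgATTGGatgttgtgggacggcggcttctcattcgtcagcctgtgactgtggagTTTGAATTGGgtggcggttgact
HMMR, chr5:163460512-163460631 (+ strand): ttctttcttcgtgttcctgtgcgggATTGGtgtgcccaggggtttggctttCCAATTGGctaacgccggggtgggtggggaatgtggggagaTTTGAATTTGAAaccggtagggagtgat
ANLN, chr7:36389742-36389861 (+ strand): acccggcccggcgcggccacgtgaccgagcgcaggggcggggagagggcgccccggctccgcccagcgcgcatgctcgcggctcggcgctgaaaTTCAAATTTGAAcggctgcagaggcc
Over the window of 250 bases before to 50 after the start, TTTGAA occurred on either strand in 29 of 41 G2/M members with a promoter entry (70.7%) and in 9.71% of the promoters of 11678 genes tested. CCAAT occurred in 33 of the same members (80.5%) against 36.4%. Of the 38 TTTGAA matches in these members, 19 began in the last 60 bases before the start and 9 after it. Among the 1134 tested genes with TTTGAA, 23.9% were lower at 24 h and 11.02% higher, and among the 10544 without it 15.2% were lower and 17.6% higher. For CCAAT the shares were nearly alike, with 16.98% lower and 16.75% higher with it and 15.5% and 17.1% without. In the lowest of 5 equal groups by transcript GC, 29.4% were lower and 5.07% higher. The part of base composition in the TTTGAA split was not tested. A match is a description of the sequence and not a bound site.

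Of the kinases and cyclins, CCNB1, the mitotic cyclin B1, measured 161, 160.1 and 151 CPM at 12 h and 56.1, 63.97 and 93.8 CPM at 24 h (log2 fold change -1.14, SE 0.16, adjusted p = 7.3e-05), and CDK1, CCNA2, PLK1, AURKA and AURKB fell (-1.62, -1.74, -1.16, -1.34 and -1.19). CENPE, a kinesin that moves chromosomes to the spindle equator, measured 62.6, 74.8 and 42.7 CPM at 12 h and 15.8, 8.27 and 13.03 CPM at 24 h, and KNL1, the kinetochore scaffold, which is outside the list, measured 40.3, 40.8 and 32.3 CPM at 12 h and 9.72, 4.59 and 5.43 CPM at 24 h. Both were among the 15 largest falls (log2 fold change -2.28, SE 0.23, adjusted p = 5.7e-06 for CENPE and log2 fold change -2.53, SE 0.22, adjusted p = 1.0e-06 for KNL1). ANLN, the cytokinesis scaffold anillin, CDCA8, a subunit of the chromosomal passenger complex, and HMMR, a spindle assembly factor, fell (-2.06, -1.62 and -1.82), and KIF15, a spindle kinesin outside the list, fell by 2.26. The 4 members that did not pass were UBE2C (-1.16), PTTG1 (-0.53), BUB3 (-0.30) and CDC25B (-0.09). Without replicate 3 of 24 h, UBE2C, PTTG1 and BUB3 passed as well (adjusted p = 4.2e-07, 9.7e-05 and 0.034).

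DNA replication genes fell as well. 39 of 46 G1/S members tested were lower and 1 was higher, with a median of -1.03. CLSPN, the checkpoint adaptor claspin, measured 12.7, 11.5 and 11.9 CPM at 12 h and 2.93, 1.75 and 3.03 CPM at 24 h (log2 fold change -2.22, SE 0.19, adjusted p = 1.0e-06). TYMS, thymidylate synthase, measured 37.5, 37.2 and 42.7 CPM at 12 h and 11.7, 10.9 and 14.8 CPM at 24 h, and RRM1, the large ribonucleotide reductase subunit, measured 110.2, 113 and 96.3 CPM at 12 h and 34.6, 37.2 and 41.9 CPM at 24 h. Their groups did not overlap, with log2 fold changes of -1.65 and -1.49. Of the helicase subunits, MCM2, MCM3, MCM4, MCM6 and MCM7 fell (-1.27, -0.77, -1.03, -0.52 and -0.60), and MCM5 was at -0.32 and did not pass (adjusted p = 0.17, and 0.036 without replicate 3 of 24 h). CCNE1, cyclin E1, which activates CDK2 at the G1/S transition, was the member that rose. It measured 5.68, 4.69 and 6.598 CPM at 12 h and 11.3, 8.81 and 17.1 CPM at 24 h (log2 fold change 1.14, SE 0.23, adjusted p = 0.0016), while its paralog CCNE2 measured 6.497, 6.55 and 4.23 CPM at 12 h and 2.305, 2.11 and 2.02 CPM at 24 h and fell by 1.42. E2F sites (TTTGGCGC, either strand) were found in 9 of 38 G1/S promoters against 1.03% of the genes tested. The other form, TTTCCCGC, was in 11 against 2.54%. Motifs of lists described below were read as shares of members against genes tested. These were 4.76% against 1.05% for cholesterol, 3.57% against 4.76% for immediate early and 0% against 0.0514% for SRF genes. They were 15.4% against 1.67% for ATF4, 69.2% against 48.8% for ER and 24% against 15.0% for NRF2 genes. They were 48.15% against 26.15% for hypoxia, 25.8% against 4.19% for lysosomal and 72% against 31.1% for NF-kB genes.

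Homologous recombination and Fanconi anemia genes, which repair breaks and crosslinks and are most used in S and G2 phase, were lower too. 26 of 29 members tested were lower and none higher (0 at an unadjusted p below 0.05, 0 by DESeq2 and 0 by limma-voom), with a median of -1.26. BRCA1, which recruits recombination factors to breaks, measured 14.97, 15.9 and 13.6 CPM at 12 h and 2.62, 2.17 and 3.99 CPM at 24 h, and BRIP1, its helicase partner, measured 16.8, 17.2 and 13.4 CPM at 12 h and 3.18, 2.35 and 4.68 CPM at 24 h. Both were called lower (log2 fold change -2.33, SE 0.21, adjusted p = 1.3e-06 for BRCA1 and log2 fold change -2.20, SE 0.21, adjusted p = 1.5e-06 for BRIP1). POLQ, the polymerase of microhomology-mediated joining, and FANCI and FANCD2, the clamp that is ubiquitinated at crosslinks, fell (-2.28, -1.81 and -1.68). PALB2 (0.08), FANCL (-0.18) and XRCC3 (-0.43) did not pass, though XRCC3 passed without replicate 3 of 24 h (adjusted p = 0.021).

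The change from 3 h to 12 h in static cells uses the same 12 h libraries and crosses the batch dates, so its values are only set beside those above. Over all genes 21.7% were higher and 22.9% lower at 12 h than at 3 h. G1/S members had a median of -1.49 from 3 h to 12 h, with 45 of 46 lower, and G2/M members a median of -0.17, with 7 of 48 lower and 1 higher. Relative to 12 h, the median G2/M member stood at 0.18, 0.25 and 0.06 on the log2 scale in the 3 h libraries and at -1.65, -1.82 and -1.08 in the 24 h libraries. The median G1/S member stood at 1.53, 1.51 and 1.43 in the 3 h libraries and at -1.20, -0.99 and -0.91 in the 24 h libraries.

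**Figure D2:**
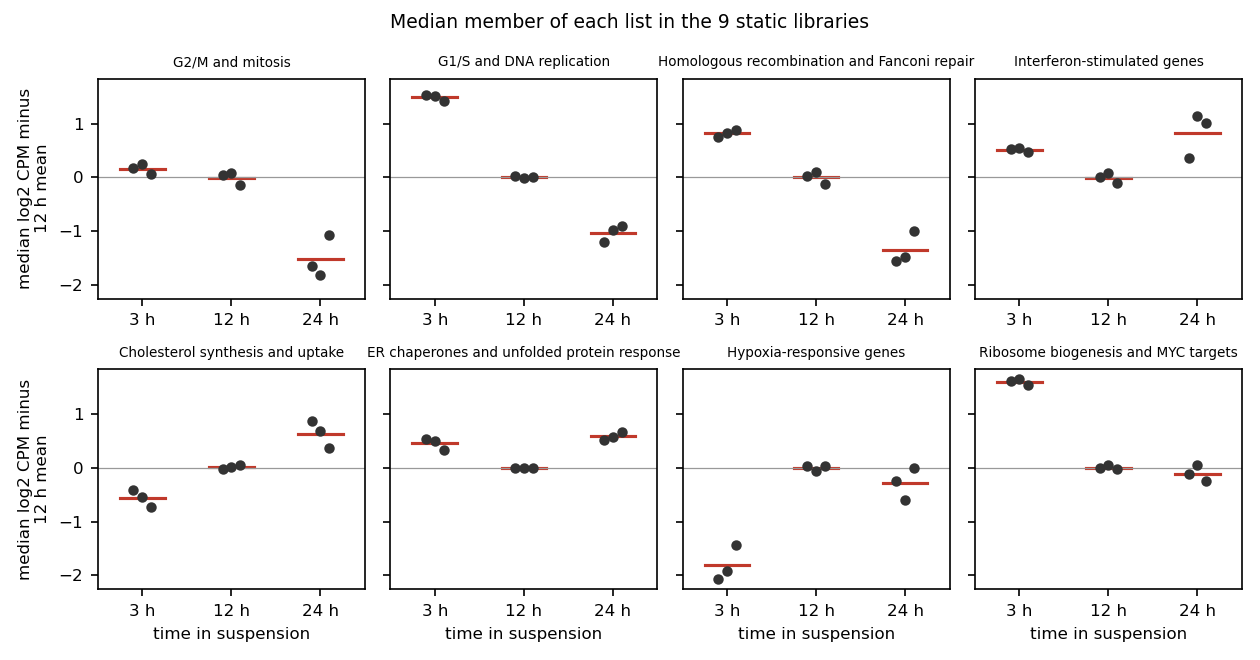
For 8 gene lists, each point is 1 static library (3 h, 12 h and 24 h in suspension, 3 each) and the red line is the group mean. The y axis is the median over the list's members of log2 CPM minus that gene's mean over the 12 h libraries. The G2/M list lies near 0 at 3 h and 12 h and between -1.82 and -1.08 at 24 h, and in the interferon list replicate 1 of 24 h, at 0.36, lies under the other 24 h libraries.

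Of 26 CDK inhibitor and quiescence genes, which restrain the cycle, 5 rose and 4 fell, shares near those of all genes tested (16.9% and 15.6%). The lower count was 2 without replicate 1 or 3 of 12 h or replicate 2 of 24 h and 7 without replicate 1 of 24 h. CDKN2A, the locus of p16 and ARF, measured 98.3, 91.3 and 123 CPM at 12 h and 205, 220.0 and 261 CPM at 24 h (log2 fold change 1.14, SE 0.14, adjusted p = 2.3e-05), and CDKN1A, p21, measured 59.7, 48.03 and 66.2 CPM at 12 h and 104, 73.9 and 104 CPM at 24 h (log2 fold change 0.70, SE 0.15, adjusted p = 0.0022). CDKN2B, p15, rose by 0.65. TXNIP, a thioredoxin-binding arrestin that reports glucose state, measured 146, 134 and 141 CPM at 12 h and 341, 252 and 606 CPM at 24 h (log2 fold change 1.51, SE 0.24, adjusted p = 5.9e-04). In none of these did the groups overlap. RBL1, the pocket protein p107 and itself an E2F target, fell by 1.57. CDKN1B, p27, was at 0.23 (adjusted p = 0.33), with overlapping groups. MYC was at 0.18 (adjusted p = 0.31), and the ribosome biogenesis and MYC target list had 5 members higher (3 without replicate 2 of 12 h or replicate 2 of 24 h) and 10 lower of 40, the latter 2 without replicate 2 and 6 without replicate 1 of 12 h and 4 without replicate 3 of 24 h.

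Replication-dependent histone genes, whose RNAs normally accumulate in S phase and end in a stem-loop instead of a poly(A) tail, did not follow the replication genes. 11 of 29 tested were higher at 24 h and none lower (1 at an unadjusted p below 0.05, 0 by DESeq2 and 0 by limma-voom), with a median of 0.52. With offsets for length and GC, a setting described with the length trend, 9 were higher and the median was 0.24. The replicate block gave 14 higher and 1 lower. H1-2, a linker histone, measured 138, 129.8 and 130.4 CPM at 12 h and 244, 215 and 383 CPM at 24 h (log2 fold change 1.08, SE 0.17, adjusted p = 1.9e-04). H2BC21, a histone H2B gene that is also made as polyadenylated RNA in resting cells, measured 64.97, 66.2 and 50.7 CPM at 12 h and 119.7, 100.4 and 211 CPM at 24 h (log2 fold change 1.25, SE 0.22, adjusted p = 0.0010). The groups were apart in both. Histone genes are near-identical copies, so reads may be divided unevenly among them, and whether the libraries selected poly(A) RNA is unknown from the labels.

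Interferon-stimulated genes rose. They encode antiviral proteins and are switched on by a complex of STAT proteins and IRF9 bound to the interferon-stimulated response element (ISRE). Of 44 tested, 30 were higher and none lower (0 at an unadjusted p below 0.05, 0 by DESeq2 and 0 by limma-voom), with a median of 0.87. OAS1, which makes the 2-5A activator of RNase L, measured 47.8, 47.1 and 43.3 CPM at 12 h and 137, 221 and 261 CPM at 24 h (log2 fold change 2.16, SE 0.19, adjusted p = 1.3e-06). ISG15, a ubiquitin-like modifier, measured 179, 175 and 211 CPM at 12 h and 379.7, 875 and 711 CPM at 24 h (log2 fold change 1.80, SE 0.22, adjusted p = 5.8e-05). In both, the groups were apart and replicate 1 of 24 h was the lowest 24 h library.

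ISG15 and IFI44L were the 2 of the first 6 members by p value with a promoter entry (the others were OAS1, IFI35, IRF9 and RSAD2) whose 170 bases before the start held the ISRE core (GAAA, any 2 bases, GAAA), marked in capitals.
ISG15, chr1:1013327-1013496 (+ strand): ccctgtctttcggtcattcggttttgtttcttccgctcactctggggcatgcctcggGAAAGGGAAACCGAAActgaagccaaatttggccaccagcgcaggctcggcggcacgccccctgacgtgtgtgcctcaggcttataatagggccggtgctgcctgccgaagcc
IFI44L, chr1:78620278-78620447 (+ strand): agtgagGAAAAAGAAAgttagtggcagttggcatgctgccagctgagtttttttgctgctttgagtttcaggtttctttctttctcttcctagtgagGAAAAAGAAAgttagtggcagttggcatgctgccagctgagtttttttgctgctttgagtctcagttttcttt
IFI44L rose by 1.75. In ISG15 the matches overlap, and in IFI44L the same core occurs in each copy of a repeated stretch. OAS1, IFI35 and RSAD2 hold GAAA repeats with a shorter gap, which the pattern does not count. A missing match is thus no sign that an ISRE is absent. Over the whole window and both strands the core was found in 21 of 35 interferon-stimulated promoters and in 2.83% of those of the genes tested.

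BST2, IFI6 and IFI27 were the members among the 15 largest rises. BST2, tetherin, which holds budding viruses at the surface, measured 2.84, 2.22 and 3.27 CPM at 12 h and 9.65, 30.5 and 32.1 CPM at 24 h (log2 fold change 3.12, SE 0.45, adjusted p = 5.4e-04). IFI6, an ER and mitochondrial protein, measured 26.5, 29.8 and 45.8 CPM at 12 h and 101, 294 and 425 CPM at 24 h, and IFI27 measured 24.8, 25.6 and 35.7 CPM at 12 h and 83.3, 189 and 284 CPM at 24 h, with log2 fold changes of 3.01 and 2.70. In each of the 3 genes, replicate 1 of 24 h stood below replicates 2 and 3. IFITM1, an interferon-induced surface protein outside the list with close copies that may share reads, rose by 2.77. Of the factors of the pathway, IRF9 and IRF7 rose by 1.25 and 1.34, and STAT2 was at 0.27 and did not pass. From 3 h to 12 h, with the same 12 h libraries, 19 members were lower and 3 higher, with a median of -0.48.

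Antigen presentation by MHC class I, which is induced by the same factors, had 9 of 17 members higher and none lower (0 at an unadjusted p below 0.05, 0 by DESeq2 and 0 by limma-voom), with a median of 0.56. The higher count was 5 without replicate 1 and also without replicate 2 of 12 h. It was 13 without replicate 1 of 24 h. Without replicate 3 of 24 h, 6 members were higher and 1 lower. TAPBP, tapasin, which loads peptides, measured 178, 157 and 168 CPM at 12 h and 228, 326 and 354 CPM at 24 h (log2 fold change 0.85, SE 0.15, adjusted p = 4.3e-04), and HLA-E measured 148, 142 and 161 CPM at 12 h and 206, 253 and 321 CPM at 24 h (log2 fold change 0.79, SE 0.14, adjusted p = 6.1e-04). HLA genes resemble each other and may share reads. TAP1, a subunit of the peptide transporter (0.48), did not pass, but passed without replicate 1 of 24 h (adjusted p = 4.2e-04). Of 30 NF-kB targets and cytokines, 8 rose and 2 fell. The higher count was 5 without replicate 1 or 2 of 12 h, and the lower count 4 without replicate 3 of 24 h. C3, the central complement component, rose by 1.60, while BIRC3, an inhibitor of apoptosis, fell by 0.95.

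**Figure D3:**
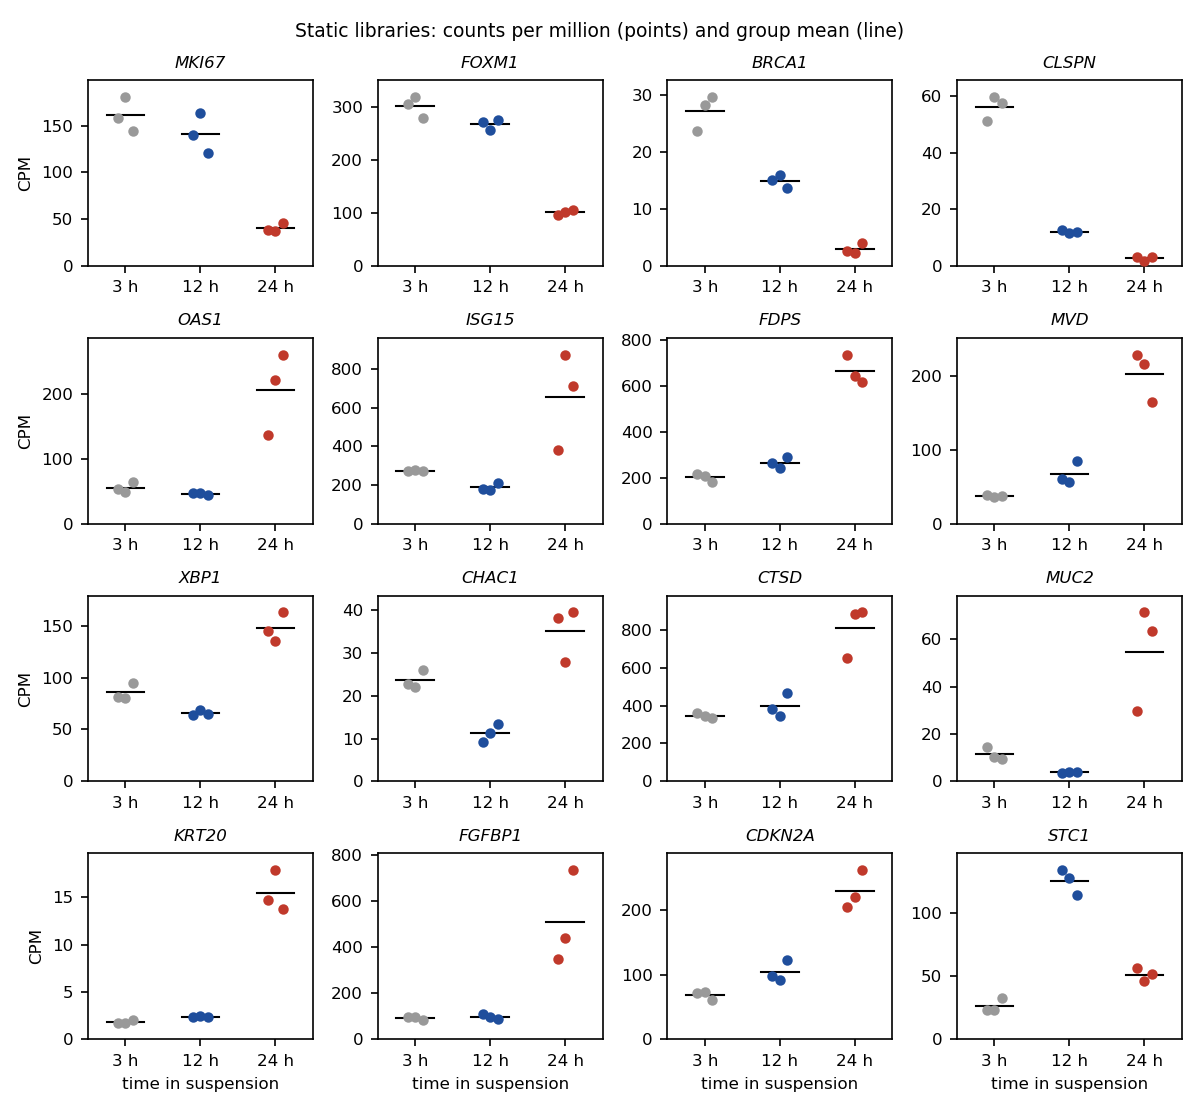
CPM of 16 genes in the 9 static libraries. Points are libraries at 3 h (grey), 12 h (blue) and 24 h (red), the line is the mean of 3, and each y axis starts at 0 and has its own scale. In all 16 genes the 24 h points lie apart from the 12 h points, as in 42.4% of all genes tested, for example FDPS at 242 to 289 CPM at 12 h and 615 to 734 at 24 h.

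When ER cholesterol is low, SREBP2 is cleaved and activates the enzymes from acetyl-CoA to cholesterol. Of 29 members tested, 20 were higher and none lower (0 at an unadjusted p below 0.05, 0 by DESeq2 and 0 by limma-voom), with a median of 0.66. FDPS, which makes farnesyl pyrophosphate, measured 262, 242 and 289 CPM at 12 h and 734, 643 and 615 CPM at 24 h (log2 fold change 1.33, SE 0.13, adjusted p = 1.6e-06). MVD, mevalonate diphosphate decarboxylase, measured 60.7, 55.7 and 84.3 CPM at 12 h and 229, 216 and 165 CPM at 24 h (log2 fold change 1.60, SE 0.16, adjusted p = 2.8e-06). The groups were far apart in both. FDFT1, EBP and DHCR7, later enzymes of the path, rose by 1.11, 1.02 and 0.91. ABCA1 (0.09) and ABCG1 (-0.61), which export cholesterol, did not pass; with offsets for length and GC, a setting described with the length trend, ABCA1 passed (0.43, adjusted p = 0.031).

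Fatty acid genes moved less evenly: 10 of 20 synthesis genes rose and 2 fell (4 without replicate 1 of 24 h). ACSS2, which makes acetyl-CoA from acetate, measured 170.5, 182 and 183 CPM at 12 h and 405, 354 and 262 CPM at 24 h (log2 fold change 0.93, SE 0.15, adjusted p = 2.0e-04), and SCD, stearoyl-CoA desaturase, measured 1223, 1217 and 1259 CPM at 12 h and 2388, 1848 and 1563 CPM at 24 h (log2 fold change 0.65, SE 0.15, adjusted p = 0.0034). Both were highest in replicate 1 of 24 h, with no overlap. SCD5, another desaturase, fell by 1.02. On the side of lipid use, 8 of 26 genes rose and 1 fell (2 without replicate 1 of 24 h). PNPLA2, the lipase that opens lipid droplets, measured 149, 143 and 165 CPM at 12 h and 385, 489 and 603 CPM at 24 h (log2 fold change 1.69, SE 0.15, adjusted p = 1.3e-06), and PLIN2, a droplet coat protein, measured 118, 118 and 89.8 CPM at 12 h and 59.1, 70.8 and 73.4 CPM at 24 h (log2 fold change -0.68, SE 0.16, adjusted p = 0.0041). The 2 genes moved in opposite directions, each without overlap.

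In the ER list, 16 of 29 chaperone and unfolded protein response genes were higher and none lower (0 at an unadjusted p below 0.05, 0 by DESeq2 and 0 by limma-voom), with a median of 0.57. The lower count was 2 without replicate 1 of 24 h. XBP1, the transcription factor spliced by IRE1, measured 63.8, 68.5 and 64.6 CPM at 12 h and 145, 135 and 163 CPM at 24 h (log2 fold change 1.17, SE 0.12, adjusted p = 4.5e-06), and HSPA5, the chaperone BiP, measured 327, 336 and 299.9 CPM at 12 h and 614, 556 and 676 CPM at 24 h (log2 fold change 0.94, SE 0.13, adjusted p = 6.5e-05). Neither overlapped between the groups. HERPUD1, a part of ER-associated degradation, and MANF, a secreted ER protein, rose by 1.13 and 1.01. ATF6, a sensor of unfolded protein (-0.10), did not pass. With the same 12 h libraries, the list had 18 members lower at 12 h than at 3 h.

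Of 32 ATF4-responsive and amino acid genes, 15 rose and 1 fell (median 0.39). ATF4 itself, translated when eIF2 is phosphorylated, measured 276, 261 and 288 CPM at 12 h and 481, 459.9 and 520.4 CPM at 24 h (log2 fold change 0.82, SE 0.11, adjusted p = 5.4e-05). CHAC1, which degrades glutathione, measured 9.28, 11.2 and 13.3 CPM at 12 h and 38.1, 27.8 and 39.5 CPM at 24 h, and CTH, which makes cysteine, measured 9.22, 9.53 and 8.61 CPM at 12 h and 32.2, 22.99 and 34.2 CPM at 24 h, with log2 fold changes of 1.64 and 1.71. The groups did not overlap in any of the 3. SLC1A5, the glutamine carrier, DDIT3, the factor CHOP, and GDF15, a secreted stress cytokine, rose by 1.49, 1.04 and 1.85. ASNS, asparagine synthetase (0.18), did not pass. The member called lower was ALDH1L2, a mitochondrial folate enzyme (-1.53, adjusted p = 0.044); leaving out 1 library gave an adjusted p between 0.022 and 0.21, and the libraries whose absence ended the call were all 3 of 12 h, replicates 1 and 3 of 24 h and replicate 2 of 3 h.

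Of the antioxidant and iron storage genes, 18 of 37 NRF2 targets, ferritin and aldo-keto reductase genes were higher and 3 lower (5 without replicate 1 of 24 h; median 0.35). GPX2, a glutathione peroxidase of epithelia, measured 6.26, 6.65 and 7.404 CPM at 12 h and 17.4, 19.6 and 26.7 CPM at 24 h (log2 fold change 1.65, SE 0.20, adjusted p = 1.6e-05), and GSR, glutathione reductase, measured 141, 127 and 134 CPM at 12 h and 227, 269.6 and 299 CPM at 24 h (log2 fold change 0.98, SE 0.12, adjusted p = 2.5e-05). The groups were apart. FTH1, the ferritin heavy chain, which has many processed copies that may take reads, measured 11272, 9897 and 11027 CPM at 12 h and 20269, 14881 and 18981 CPM at 24 h and rose by 0.75. GCLM, a subunit of the enzyme that starts glutathione synthesis, fell by 0.66, and NQO1, the usual reporter of NRF2, was at 0.06 and did not pass.

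Lysosomal and autophagy genes, many of them targets of TFEB, were higher in 22 of 43 cases and lower in none (1 at an unadjusted p below 0.05, 0 by DESeq2 and 0 by limma-voom), with a median of 0.35. CTSD, the protease cathepsin D, measured 383, 347 and 468 CPM at 12 h and 652, 882 and 892 CPM at 24 h (log2 fold change 1.02, SE 0.14, adjusted p = 7.6e-05). PSAP, the precursor of the saposins, measured 492, 470.1 and 533 CPM at 12 h and 756, 858 and 930.3 CPM at 24 h (log2 fold change 0.77, SE 0.12, adjusted p = 1.8e-04), and ULK1, the kinase that starts autophagy, measured 162, 155 and 193 CPM at 12 h and 319.6, 258 and 278 CPM at 24 h (log2 fold change 0.75, SE 0.13, adjusted p = 4.3e-04). Again no library of 24 h overlapped with 12 h. MCOLN1, a lysosomal calcium channel, rose by 0.81 and SQSTM1, the autophagy receptor p62, by 0.84.

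**Figure D4:**
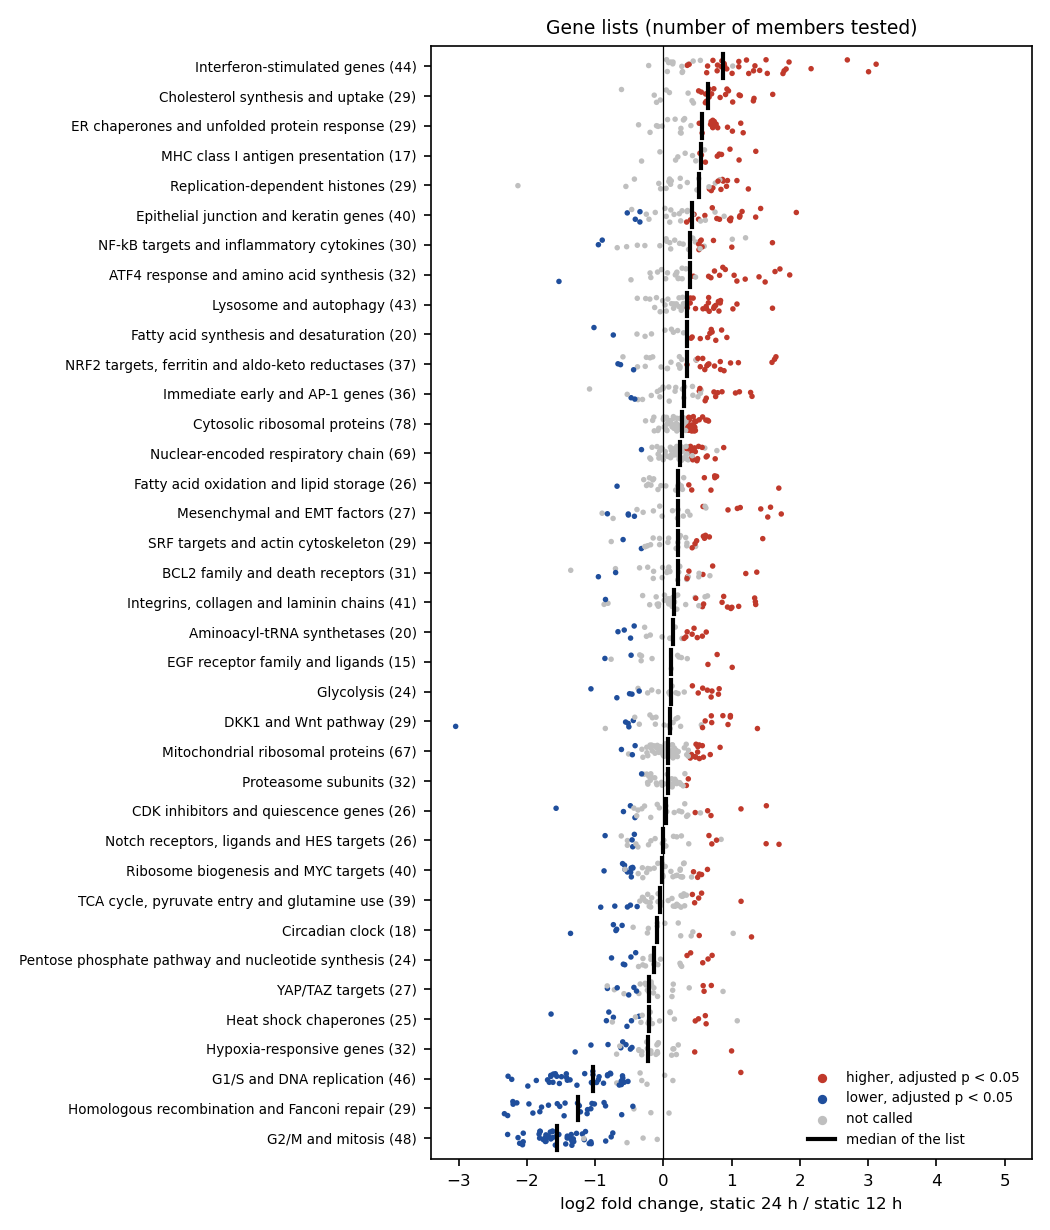
Log2 fold change of static 24 h over static 12 h (x axis) for every tested member of 37 gene lists, ordered by their median (black bar), with the number of members tested in brackets. Red points are higher and blue points lower at adjusted p below 0.05, and grey points did not pass; the vertical position within a row has no meaning. The G2/M, recombination and G1/S lists lie at the bottom and the interferon list, with a median of 0.87, at the top.

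Hypoxia-responsive genes, which had a median of 1.80 from 3 h to 12 h, had 2 members higher and 8 lower of 32 from 12 h to 24 h. The lower count was 3 without replicate 2 of 24 h, 4 without replicate 1 or without replicate 2 of 12 h, and 5 without replicate 3 of 12 h. STC1, the secreted hormone stanniocalcin, measured 133, 128 and 114 CPM at 12 h and 55.9, 45.98 and 51.1 CPM at 24 h (log2 fold change -1.29, SE 0.15, adjusted p = 9.8e-06), and EGLN1, the hydroxylase that marks HIF for decay, measured 272, 268 and 258 CPM at 12 h and 196, 151 and 171 CPM at 24 h (log2 fold change -0.62, SE 0.14, adjusted p = 0.0024). CA9, carbonic anhydrase IX, went the other way and measured 9.92, 14.2 and 12.9 CPM at 12 h and 19.00, 20.5 and 34.7 CPM at 24 h (log2 fold change 1.00, SE 0.22, adjusted p = 0.0023). VEGFA (-0.18) and SLC2A1, the glucose transporter GLUT1 (-0.07), did not pass.

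In glycolysis 8 of 24 genes rose and 5 fell, the latter 3 without any 1 of the 3 libraries of 12 h and without replicate 3 of 24 h. Of the hexokinases, which phosphorylate glucose, HK2 measured 320.0, 305 and 319 CPM at 12 h and 228, 150.2 and 210.4 CPM at 24 h and HK1 459.8, 473 and 537 CPM at 12 h and 331, 362 and 349.9 CPM at 24 h, and both fell (-0.68 and -0.49). PFKFB3, which makes the activator of phosphofructokinase, fell by 1.06, the lowest value of the list, a call that ended when any 1 library of 12 h or 24 h was left out (adjusted p = 0.039, and 7.7e-05 to 0.11 with 1 library of the 9 left out). ALDOA, PFKL, PKM and PGK1, enzymes of the path, rose by 0.82, 0.81, 0.70 and 0.51. LDHA, lactate dehydrogenase, was at 0.18 (adjusted p = 0.32). Of the TCA cycle list 5 of 39 rose (3 without replicate 1 or 2 of 12 h) and 5 fell (1 without replicate 2 of 12 h and 2 without replicate 1 of 12 h or replicate 3 of 24 h). Neither share was above that of all genes tested (16.9% and 15.6%). PC, pyruvate carboxylase, measured 22.6, 25.9 and 28.2 CPM at 12 h and 50.3, 64.2 and 54.3 CPM at 24 h (log2 fold change 1.14, SE 0.14, adjusted p = 1.9e-05), and PDK3, which switches off pyruvate dehydrogenase, fell by 0.92.

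Of 78 cytosolic ribosomal protein genes 28 were higher and none lower (1 at an unadjusted p below 0.05, 0 by DESeq2 and 0 by limma-voom), with a median of 0.28. The higher count was 6 without replicate 1 and 3 without replicate 2 of 12 h, 13 without replicate 3 of 24 h and 17 without replicate 1 of 3 h. The share of total counts in these genes, without TMM scaling, overlapped between the groups. It was 6.99 to 7.92% at 12 h and 7.65 to 7.80% at 24 h (exact two-sided permutation p = 0.4). The TMM factors were 1.03 to 1.07 at 12 h and 0.86 to 0.96 at 24 h, and the part of scaling in the rise was not tested. Ribosomal protein genes have many processed copies that may share reads. Of 69 respiratory chain genes 18 were higher and 1 lower. The former count was 3 without replicate 1 and also without replicate 2 of 12 h, 34, 8 and 7 without replicates 1, 2 and 3 of 24 h, and 11 without replicate 1 of 3 h. Of 32 proteasome subunits 2 were higher and 1 lower. The higher count was 0 without replicate 1 or 2 of 12 h or replicate 2 of 24 h, 1 without replicate 3 of 24 h or replicate 1 or 2 of 3 h, 4 without replicate 3 of 12 h and 6 without replicate 1 of 24 h, and 0 with the 6 libraries of 12 h and 24 h alone, and the lower count 0 without replicate 1 or 2 of 12 h, replicate 1 of 24 h or replicate 1 or 2 of 3 h and 2 without replicate 3 of 12 h, with a median over the list of 0.07.

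Among the heat shock chaperones 7 of 25 fell and 4 rose, the former 4 without replicate 1 and also without replicate 2 of 12 h. HSP90AA1, the inducible cytosolic HSP90, measured 1214, 1377 and 1008 CPM at 12 h and 735, 742 and 692 CPM at 24 h (log2 fold change -0.73, SE 0.15, adjusted p = 0.0019), and HSPD1, the mitochondrial chaperonin, measured 528, 547 and 461 CPM at 12 h and 286, 314 and 262 CPM at 24 h (log2 fold change -0.83, SE 0.13, adjusted p = 1.9e-04). Both were lower in each library of 24 h than in any of 12 h.

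The largest rises outside the lists included MUC2, KRT20, FGFBP1 and MUC5AC, while KRT4, a keratin of stratified mucosa, was the largest fall by the same rule. MUC2, a gel-forming mucin of the intestine, measured 3.48, 4.12 and 4.08 CPM at 12 h and 29.7, 71.3 and 63.2 CPM at 24 h (log2 fold change 3.81, SE 0.30, adjusted p = 1.5e-06), and MUC5AC, a gel-forming mucin of airway and stomach, measured 14.3, 17.1 and 26.1 CPM at 12 h and 69.2, 89.7 and 127 CPM at 24 h (log2 fold change 2.31, SE 0.23, adjusted p = 5.0e-06). KRT20, a keratin of intestinal and urothelial cells, measured 2.32, 2.47 and 2.37 CPM at 12 h and 14.7, 17.9 and 13.7 CPM at 24 h (log2 fold change 2.69, SE 0.20, adjusted p = 6.9e-07). FGFBP1, a secreted carrier of fibroblast growth factors, measured 107, 97.9 and 88.9 CPM at 12 h and 348, 439.9 and 732 CPM at 24 h (log2 fold change 2.37, SE 0.21, adjusted p = 2.6e-06). Replicate 1 was the lowest 24 h library for MUC2 and replicate 3 the highest for FGFBP1. CEACAM5, carcinoembryonic antigen, which has close paralogs, measured 15.02, 14.8 and 15.6 CPM at 12 h and 117, 99.03 and 384 CPM at 24 h. Its call (log2 fold change 3.72, SE 0.88, adjusted p = 0.021) was lost when any 1 of the 3 libraries of 12 h was left out (adjusted p = 0.082, 0.084 and 0.055 without replicates 1, 2 and 3). TRIM29, a tripartite motif protein of squamous epithelium, SPRR1A, a precursor of the squamous cornified envelope, and S100P, a calcium-binding protein, rose by 2.41, 2.74 and 2.40. PSCA, prostate stem cell antigen, rose by 2.08.

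Of the epithelial junction and keratin list 17 of 40 rose and 4 fell, the latter 0 without replicate 1 or 2 of 12 h or replicate 2 of 24 h, 2 without replicate 3 of 24 h or replicate 2 of 3 h and 1 without replicate 1 of 3 h. KRT8, a keratin of simple epithelia, measured 753, 843 and 844 CPM at 12 h and 1222, 2162 and 1907 CPM at 24 h (log2 fold change 1.12, SE 0.17, adjusted p = 1.3e-04), and CLDN7, a tight junction claudin, measured 129, 117 and 185 CPM at 12 h and 261, 267 and 409 CPM at 24 h (log2 fold change 1.12, SE 0.18, adjusted p = 3.0e-04). ELF3, an epithelial transcription factor, rose by 1.35. Outside the list, KRT4 measured 14.2, 13.8 and 18.03 CPM at 12 h and 0.997, 3.62 and 2.29 CPM at 24 h (log2 fold change -2.73, SE 0.27, adjusted p = 5.0e-06). CDH1, E-cadherin, was at 0.25 (adjusted p = 0.10) and VIM, vimentin, at -0.05 (adjusted p = 0.84), the latter with overlapping groups. Of 27 mesenchymal genes 8 rose and 4 fell, the share lower being near that of all genes tested (15.6%). The lower count was 2 without replicate 1 or 2 of 12 h or replicate 3 of 24 h. S100A4, a calcium-binding protein of motile cells, measured 58.6, 65.1 and 63.2 CPM at 12 h and 165, 216 and 238 CPM at 24 h (log2 fold change 1.73, SE 0.15, adjusted p = 1.1e-06), and PLAU, the urokinase protease, rose by 1.13.

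Of the matrix and adhesion genes, 12 of 41 integrin, collagen and laminin chains were higher and 1 lower (2 without replicate 3 of 12 h). ITGB4, the integrin of hemidesmosomes, measured 1160.4, 1182 and 1439.7 CPM at 12 h and 2269, 2565 and 4793 CPM at 24 h (log2 fold change 1.35, SE 0.24, adjusted p = 0.0013), and LAMB3, a chain of a laminin that it binds, rose by 1.00. LAMA3, another laminin chain, was at 0.13 and did not pass. ITGB1 (0.07) and ITGAV (0.09), widely shared integrin chains, did not pass, though ITGAV passed with the offsets (0.46, adjusted p = 0.015). COL12A1 fell by 0.85. Of the SRF and actin list 8 of 29 rose and 2 fell. The latter count was 0 without replicate 1 of 12 h and 1 without replicate 2 or 3 of 12 h, replicate 1, 2 or 3 of 24 h or replicate 1 or 2 of 3 h. ZYX, a focal adhesion protein, measured 289, 263 and 301 CPM at 12 h and 529.9, 906 and 904 CPM at 24 h (log2 fold change 1.46, SE 0.18, adjusted p = 2.0e-05). YAP/TAZ targets had 3 members higher and 5 lower of 27, with CCN2 at 0.14; without replicate 1 or 2 of 12 h 1 was higher and 1 lower, and the lower count was 8 without replicate 1 and 2 without replicate 2 of 24 h. Over all genes tested 16.9% were higher and 15.6% lower, not far from the shares of these targets.

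Of 36 immediate early genes 12 rose and 2 fell, the latter 0 without replicate 1 or 3 of 12 h or replicate 2 or 3 of 24 h and 1 without replicate 2 of 12 h or replicate 1 or 2 of 3 h. JUNB, an AP-1 subunit that slows proliferation, measured 102, 97.5 and 128 CPM at 12 h and 209, 239 and 357 CPM at 24 h (log2 fold change 1.30, SE 0.17, adjusted p = 3.9e-05). DUSP4 and DUSP5, phosphatases that switch off ERK, rose by 0.86 and 1.06. Of 15 EGF receptor family and ligand genes 3 rose and 2 fell, the latter 0 without replicate 1 or 2 of 12 h and 1 without replicate 3 of 12 h, replicate 2 or 3 of 24 h or replicate 1 or 2 of 3 h. Over all genes tested 16.9% rose and 15.6% fell, near the shares of this list. EGFR, the receptor of EGF, measured 101, 111 and 88.04 CPM at 12 h and 81.04, 32.6 and 52.4 CPM at 24 h (log2 fold change -0.86, SE 0.24, adjusted p = 0.017), a call that ended without replicate 1 or 2 of 12 h or replicate 3 of 24 h (adjusted p = 0.054, 0.077 and 0.071), with no filter on low counts and with the offsets. ERBB2, a receptor without a known ligand, measured 101, 99.3 and 123 CPM at 12 h and 197, 239 and 213 CPM at 24 h (log2 fold change 1.01, SE 0.13, adjusted p = 2.4e-05), and ERBB3 and the ligand AREG rose by 0.65 and 0.79. Of 29 Wnt pathway genes 9 rose and 5 fell, the latter 2 without replicate 1 or 2 of 12 h or replicate 3 of 24 h and 3 without replicate 1 of 3 h. WNT11, a ligand, measured 0.754, 1.24 and 0.554 CPM at 12 h and 0.0623, 0.181 and 0.0532 CPM at 24 h and had the lowest fitted value of the list (-3.04, adjusted p = 0.0028); its level at 24 h rests on few counts, so that value is no measure of size. WNT7A, a secreted ligand, measured 18.5, 18.3 and 18.1 CPM at 12 h and 46.6, 48.3 and 47.8 CPM at 24 h (log2 fold change 1.38, SE 0.13, adjusted p = 1.5e-06), and DKK1, a secreted Wnt inhibitor, measured 79.9, 96.9 and 84.2 CPM at 12 h and 160.1, 186 and 169.7 CPM at 24 h (log2 fold change 0.98, SE 0.13, adjusted p = 4.5e-05). The 3 libraries of each time lay close together for WNT7A. Of 26 Notch pathway genes 5 rose and 4 fell, the latter 1 without replicate 1 or 2 of 12 h. The shares of the Notch list are also near those of all genes tested. LFNG, a glycosyltransferase of Notch, rose by 1.69 and JAG1, a ligand, fell by 0.85. Of 18 clock genes 2 rose and 5 fell. The lower count was 3 without replicate 1 or 2 of 12 h, and the higher count 4 without replicate 3 of 12 h. NR1D1, the repressor REV-ERB alpha, rose by 1.29 and CRY1 and BMAL1 fell (-0.73 and -0.69).

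Of 31 BCL2 family and death receptor genes 7 rose and 2 fell. The higher count was 4 without replicate 1 or 2 of 12 h or replicate 2 of 24 h, and the lower count 4 without replicate 1 of 24 h. BMF, a killer protein released by detachment, measured 3.36, 4.12 and 2.82 CPM at 12 h and 8.22, 8.45 and 7.18 CPM at 24 h (log2 fold change 1.21, SE 0.25, adjusted p = 0.0015), and BBC3, the killer PUMA, measured 2.73, 2.89 and 4.73 CPM at 12 h and 8.28, 8.69 and 9.84 CPM at 24 h (log2 fold change 1.37, SE 0.30, adjusted p = 0.0027). BCL2L1, the survival protein BCL-XL, measured 209, 192 and 227 CPM at 12 h and 293, 333 and 312 CPM at 24 h (log2 fold change 0.58, SE 0.12, adjusted p = 0.0013). All 3 were apart between the groups. BCL2L11, the killer BIM (-0.15), and MCL1, a survival protein (0.08), did not pass.

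A trend with transcript length and base composition ran through all genes. Of 14397 genes with a transcript length and GC content, split into 5 equal groups by length or by GC, the shortest group had a median log2 fold change of 0.22 and the longest -0.26, and the group lowest in GC had -0.27 and the highest 0.33. Of 5 nuclear-retained RNAs tested, 2 fell and 3 did not pass. MALAT1, a long RNA kept in the nucleus, measured 36.95, 40.3 and 40.7 CPM at 12 h and 25.7, 14.1 and 11.2 CPM at 24 h (log2 fold change -1.21, SE 0.22, adjusted p = 8.3e-04), and NEAT1 measured 110.3, 97.8 and 121 CPM at 12 h and 146, 80.1 and 158 CPM at 24 h (0.23, adjusted p = 0.48). Their summed level, in CPM of total counts without TMM scaling, was 292 to 323 at 12 h and 184 to 297 at 24 h (exact two-sided permutation p = 0.2). With offsets for length and GC fitted per library, a setting chosen after seeing the data, 2554 genes were higher and 1783 lower. Under these offsets 45 G2/M, 39 G1/S and 26 recombination members were lower, and 37 interferon-stimulated, 24 cholesterol, 21 ER and 22 lysosomal members higher. The integrin, collagen and laminin list counted 19 higher members there, the NF-kB list 5, and the epithelial list 0 lower ones. CDK inhibitors counted 8 higher, heat shock chaperones 2 higher and the TCA cycle list 8 higher and 3 lower members, and the lower counts were 5 for NRF2 targets, 3 for YAP/TAZ targets, 1 for mesenchymal, 3 for Wnt, 3 for clock and 0 for EGF receptor family genes. With the 6 libraries of 12 h and 24 h alone, 12 ribosomal protein, 9 respiratory chain, 3 TCA cycle and 4 BCL2 family members were higher, and 3 TCA cycle, 1 epithelial, 3 Wnt and 2 Notch members lower. The EGF receptor family had 4 lower members under DESeq2 and limma-voom, and the BCL2 family list 4 under limma-voom and with no filter on low counts. The part of length, base composition and nuclear RNA in the results was not tested.

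The same step from 12 h to 24 h was also sampled in the sheared cells, 3 libraries each, from the same pools but other aliquots. There 257 genes were higher and 117 lower of 14672 tested (1.75% and 0.797%), counts that ranged from 0 to 834 higher and 0 to 520 lower genes when 1 sheared library of these times was left out (edgeR; 0 of each without replicate 2 of 12 h, where 1331 were higher and 1089 lower at an unadjusted p below 0.05). Of 4773 genes called in static cells, 4595 (96.3%) had the same sign in sheared cells, against 80.1% of all genes tested in both. The 360 genes called in both in the same direction are 96.3% of the sheared calls and 7.49% of the static calls.

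Whether the change itself differed was tested over all 18 libraries, with the pool as a block. It was called for 89 genes with a higher value in sheared cells (0.586% of 15189) and 12 with a lower one (0.079%). Of the 89, 39 belonged to the 3 cell cycle and repair lists, 31 of them among the 48 G2/M members. The median G2/M member fell by 1.55 on the log2 scale in static cells and had a change of -0.36 in sheared cells. MKI67 differed by 1.22 (adjusted p = 0.014), with a log2 fold change of -1.80 in static and -0.50 in sheared cells. These calls depend on the model: with the 12 libraries of 12 h and 24 h alone 6 G2/M members were called, without the block 0 (44 at an unadjusted p below 0.05), and with 1 pool of 12 h left out 17, 5 and 8 (replicates 1, 2 and 3). The sign was positive in 48 of 48 members in each of these fits. The members are read in the same libraries and the fits share libraries, so these signs are not separate observations.

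**Figure D5:**
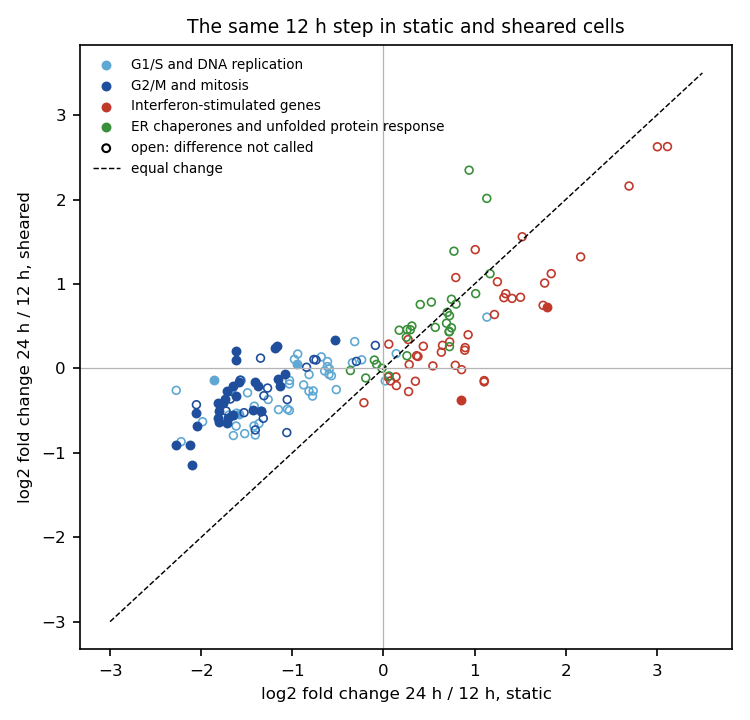
Log2 fold change from 12 h to 24 h in static cells (x axis) and in sheared cells (y axis) for the members of 4 gene lists. Filled points passed the test of the difference and open points did not, and the dashed line marks equal change. G2/M points lie above the line, with a median of -1.55 in static and -0.36 in sheared cells, and ER chaperones, with 0.57 and 0.48, scatter about it.

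The medians of other lists are given side by side. ER chaperones had 0.57 in static and 0.48 in sheared cells, cholesterol genes 0.66 and 0.61, and lysosomal genes 0.35 and 0.42. Interferon-stimulated genes had 0.87 and 0.28, and the difference passed for 2 members, ISG15 (-1.06) and IFIT1 (-1.17). Among the largest rises it passed for MUC2, which rose by 3.81 in static cells and had 1.92 in sheared cells, for TRIM29, with 2.41 and 1.22, and for MUC5AC, with 2.31 and 0.96.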

How the data were processed

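Cytosolic RNA of 18 libraries was counted per gene. The deposited table holds raw whole-number counts per NCBI Gene ID; STAR, DESeq2 and GRCh38.p13 appear, with no role, in the submitters' processing notes, and the sources used here do not give their versions, the counting tool or its use of strand. Antisense or overlapping genes therefore cannot be told apart. Gene symbols, promoters and sequences came from RefSeq GRCh38.p14 tables; 27745 of 28395 IDs had a symbol. No column of a sample outside the series was present.

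The change was tested with edgeR 4.0.16 (R 4.3.3) on the 9 static libraries: filterByExpr, TMM factors, robust quasi-likelihood fit with 6 residual degrees of freedom, and Benjamini-Hochberg adjustment over all genes at 0.05. CPM are counts per 1000000 of the TMM-scaled library. Marker levels in the check of the line and all summed levels are instead per 1000000 total counts. The 3 h libraries entered for the spread and also took part in the filter and the TMM factors. The sheared step was fitted on the 9 sheared libraries, and the difference between the steps on all 18 with the pool as block. The fit of the static libraries was tested on simulated counts. The totals of 16400487 to 21976621 counts a library make counting error small for all but low genes, so the number of libraries limits precision.

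The named genes are the 15 largest rises and 15 largest falls among called genes whose mean log2 CPM was 1 or more and whose groups did not overlap, a fixed panel, and the first 6 members by p of each list; other members were named for their role after their values were seen. Members, lists and tests were chosen with earlier results of these data known. Alternatives were DESeq2 1.42.0, limma-voom (limma 3.58.1), other scaling factors and filters, the 6 libraries alone, a replicate block, each library left out and, chosen after seeing the data, offsets for length and GC. Deviations of same-numbered libraries of 12 h and 24 h had correlations of 0.0598, -0.0308 and 0.0366. By the letters in the library names, replicate 3 of 12 h matches replicate 2 of 24 h, with a correlation of 0.121, the highest of all pairs. A pairing by letter was not tested. The labels call the times independent, so the main fit paired no libraries across time. Within a time the numbers pair static and sheared libraries of 1 pool. Some genes are not reported here.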

Additional observations from a re-analysis of the deposited data

Results flagged for a closer look

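The test over all 18 libraries asked whether the step from 12 h to 24 h differed between sheared and static cells. It was called for 89 genes above 0 (sheared minus static) and 12 below 0, and the calls depend on the block and on single pools. Among the genes of mitosis named here, the difference on the log2 scale was 1.55 for CDK1, 1.49 for KIF15, 1.37 for CENPE, 1.37 for UBE2C, 1.35 for ANLN, 1.34 for AURKB, 1.22 for MKI67, 1.15 for CCNA2, 0.92 for PLK1, 0.86 for CCNB1, 0.80 for PTTG1 and 0.77 for AURKA. It was 1.23 for CDCA8 and 1.17 for HMMR. It was 1.02 for TYMS, 1.26 for FANCI and 1.14 for BRIP1, genes of replication and crosslink repair, and 2.09 for KRT4. In the other direction it was -1.91 for MUC2, -1.31 for MUC5AC, -1.19 for TRIM29, -1.17 for IFIT1 and -1.06 for ISG15.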

How the results depend on the processing

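For static cells the counts of genes higher and lower (2499 and 2306) stayed within 1.5 times under DESeq2, limma-voom, other scaling factors and filters, the 6 libraries alone and the length and GC offsets. Leaving out 1 library gave 1451 to 2915 higher and 1398 to 2880 lower genes, the fewest without replicate 1 or 2 of 12 h. The replicate block, by number, gave 2458 and 2321. The labels call the times independent, and of the named genes the block changed the call of UBE2C alone, which passed with it (adjusted p = 0.020).

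For the sheared step (257 and 117), DESeq2 gave 776 and 499, the replicate block 24 and 4 and the 6 libraries alone 8 and 1; leaving out 1 library gave 0 to 834 higher and 0 to 520 lower, the extremes being without replicate 2 of 12 h and without replicate 2 of 24 h. For the difference between sheared and static cells (89 and 12), no filter on low counts gave 222 and 101, no replicate block 0 and 1 and the 12 libraries of 12 h and 24 h alone 10 and 2; leaving out 1 pool gave 13 to 157 and 4 to 38, the fewest without replicate 2 of 12 h, and the most without replicate 1 of 24 h above 0 and replicate 2 of 24 h below 0. The cause of these shifts was not tested.

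With the offsets CDH1, STAT2 and XRCC3 passed (0.39, 0.28 and -0.72), as did ABCA1 and ITGAV, and ALDH1L2 and EGFR did not (-1.18 and -0.59). UBE2C also passed under DESeq2, limma-voom, upper quartile factors, the filter on CPM and the offsets, BUB3 under DESeq2, limma-voom and upper quartile factors (-0.30, -0.30 and -0.33), TAP1 under DESeq2 and with no filter (0.47 and 0.48) and PTTG1 under limma-voom (-0.65). ALDH1L2 did not pass under limma-voom (-1.49), nor did IFIT1, EGFR and PFKFB3 with no filter (0.85, -0.86 and -1.06).

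Some named genes that did not pass changed sign, and none passed in the setting where its sign changed. With offsets for length and GC the log2 fold change was 0.27 for ATF6, 0.064 for BCL2L11, 0.076 for BUB3. With 1 library left out it ran from -0.011 to 0.16 for ABCA1, -0.035 to 0.36 for ASNS, -0.037 to 0.25 for CCN2, -0.11 to 0.29 for ITGAV, -0.16 to 0.26 for ITGB1, -0.031 to 0.26 for LAMA3, -0.0086 to 0.28 for LDHA, -0.076 to 0.16 for NQO1, -0.35 to 0.096 for SLC2A1 and -0.24 to 0.079 for VIM. The small number of libraries limits all of these calls.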
